A study of Mus musculus with 60 samples.

Results

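Voltage-gated calcium channels open when a cell is depolarised and let calcium in, which in neurons drives transmitter release, firing patterns and calcium-dependent gene transcription. Each high-voltage-activated channel has a pore-forming alpha1 subunit, which sets the channel class, and auxiliary beta and alpha2delta subunits, which bring the pore to the membrane and tune its gating. The low-voltage-activated T-type channels open near the resting potential, support burst firing and are built around the pore subunit alone. The levels of 10 genes of this family were examined in 3 brain regions of mice that lack Adgrl3 and of their wild-type counterparts. They encode the L-type pores Cacna1c and Cacna1d, the P/Q-type pore Cacna1a, the N-type pore Cacna1b, the R-type pore Cacna1e, the T-type pores Cacna1g, Cacna1h and Cacna1i, the alpha2delta subunit Cacna2d1 and the beta subunit Cacnb1. The genes were found by their symbols among the 21950 protein-coding genes of the deposited table, and all 10 were present and passed the filter on low counts in every comparison.

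The tested animals were knockouts (KO, genotype Adgrl3 -/-), set against wild types (WT, Adgrl3 +/+). Adgrl3, also named Lphn3, encodes the adhesion G protein-coupled receptor latrophilin-3. The series holds 10 libraries from each genotype for striatum, hippocampus and prefrontal cortex, 60 in all. Per the labels' protocols, 12 animals of each genotype were used at ages between postnatal days 65 and 76, and regions were taken from frozen brains. The labels name no strain, sex or litter, no altered part of Adgrl3 and no animal for a library. P-values therefore measure the spread between these libraries, and 2 libraries of different regions may come from the same brain.

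Library totals ran from 38985577 to 51387833 counted reads, and a single library held between 1114 and 21932 reads for a calcium channel gene. Adgrl3 itself lay at 32.5 to 46.9 CPM in KO striatum against 144 to 176 CPM in WT striatum, at 30.7 to 39.6 against 117 to 131 CPM in KO and WT hippocampus, and at 16.5 to 44.2 against 126 to 172 CPM in KO and WT prefrontal cortex, so every library matched its genotype label. CPM are counts divided by the library's TMM-scaled size over all 60 libraries. Striatal libraries held summed levels of 3000 to 4880 CPM (KO) and 3100 to 4510 CPM (WT) for 6 medium spiny neuron markers, against at most 330 CPM in any other region. The 5 hippocampal markers summed to 541 to 769 CPM in KO and 625 to 736 CPM in WT hippocampus, above every library of the other regions. Wfs1 of that list was instead lowest in hippocampus. Its means were 117 CPM in KO and 112 CPM in WT hippocampus, below those in striatum (140 and 161 CPM) and in prefrontal cortex. The 6 cortical excitatory markers summed to 2090 to 2340 CPM in KO and 2010 to 2280 CPM in WT prefrontal cortex, also above every other library. Neurod6 of that list was higher in hippocampus (means of 179 CPM in KO, 169 in WT) than in prefrontal cortex (111 and 98.6 CPM). In bulk tissue, fewer cells of a type and less RNA per cell cannot be told apart.

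The deposited counts cover each gene from its start to its end, introns included, so levels are compared between genes only per kilobase. On GRCm38 the genes lie at chr6:118587240-119196418 on the minus strand (Cacna1c), chr14:30039939-30491455 minus (Cacna1d), chr8:84388440-84640246 plus (Cacna1a), chr2:24603887-24763152 minus (Cacna1b), chr1:154390731-154884501 minus (Cacna1e), chr11:94408391-94474198 minus (Cacna1g), chr17:25374285-25433783 minus (Cacna1h), chr15:80287238-80398279 plus (Cacna1i), chr5:15934691-16374511 plus (Cacna2d1) and chr11:98001508-98023034 minus (Cacnb1). Their spans run from 21.5 kb for Cacnb1 to 609.2 kb for Cacna1c. Cacna2d1 shares its chromosome with Adgrl3. No member overlapped another protein-coding gene on its own strand. Genes on the opposite strand overlapped Cacna1c (Dcp1b), Cacna1d (Chdh and Dcp1a) and Cacna1h (Tpsg1).

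RefSeq promoter entries on GRCm38.p6 were held for 7 of the 10 genes (none for Cacna1a, Cacna1g or Cacna1h). The sequences of 3 are shown because the results below return to these genes: Cacna1i and Cacna2d1 had the largest regional differences among the 7, and Cacnb1 had the smallest p-value between genotypes. Each is the 250 bases before the start of the promoter entry, written 5′ to 3′ on the gene's strand. For Cacnb1 this start lies inside the counted gene, which begins at 98023034, so its window is within the counted span. Capitals mark GGGCGG or its reverse complement, with adjoining or overlapping matches run together.
Cacna1i, chr15:80286988-80287237, plus strand: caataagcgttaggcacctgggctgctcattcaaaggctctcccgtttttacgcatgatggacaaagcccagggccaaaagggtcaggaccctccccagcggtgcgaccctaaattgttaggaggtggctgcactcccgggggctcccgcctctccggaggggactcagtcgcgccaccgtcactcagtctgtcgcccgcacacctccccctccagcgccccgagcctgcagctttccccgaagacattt
Cacna2d1, chr5:15934441-15934690, plus strand: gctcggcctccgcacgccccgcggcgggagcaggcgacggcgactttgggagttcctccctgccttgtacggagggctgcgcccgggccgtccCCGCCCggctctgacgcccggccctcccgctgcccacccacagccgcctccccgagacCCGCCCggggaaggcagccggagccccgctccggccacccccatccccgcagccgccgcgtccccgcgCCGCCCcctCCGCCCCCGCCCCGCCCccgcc
Cacnb1, the outer of its 2 listed starts, chr11:98022628-98022877, minus strand: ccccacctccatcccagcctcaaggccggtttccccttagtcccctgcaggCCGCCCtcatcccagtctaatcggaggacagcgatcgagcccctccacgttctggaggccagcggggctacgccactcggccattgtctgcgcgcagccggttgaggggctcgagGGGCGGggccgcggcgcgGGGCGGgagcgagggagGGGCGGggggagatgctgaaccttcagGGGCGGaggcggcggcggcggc
The Cacna2d1 window was 82.4% G and C with 36 CpG dinucleotides and 6 matches to GGGCGG, and the Cacnb1 window was 73.2% G and C with 26 CpG and 5 matches. The Cacna1i window was 62.4% G and C with 16 CpG and 0 matches. Over the 32851 promoter windows of that length in the table, the median was 52.4% G and C with 6 CpG, and 32.7% of windows held GGGCGG on either strand. The letters TGACGTCA, found in 1.55% of all windows, and TATAAA, found in 12.4%, were in none of these 3 windows. CANNTG, found in 66.2% of all windows, occurred 1 time in the Cacna1i window and 0 times in the others. The window at the inner Cacnb1 start, not shown, differed from the outer one. It was 56.0% G and C with 1 CpG, 0 matches to GGGCGG and 1 to CANNTG. These matches describe the letters of the windows and nothing more.

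Most of the calcium channel genes differed in level between regions. Between WT striatum and WT hippocampus, 8 of the 10 passed an adjusted p of 0.05 (2 higher and 6 lower in striatum). Between WT striatum and WT prefrontal cortex 9 passed (5 higher, 4 lower), and between WT hippocampus and WT prefrontal cortex 9 passed (4 higher, 5 lower). Such differences were common: among all genes tested, 66.6% passed between striatum and hippocampus (32.7% higher, 33.9% lower), 71.5% between striatum and prefrontal cortex (36.9% higher, 34.6% lower) and 68.5% between hippocampus and prefrontal cortex (36.9% higher, 31.6% lower). When a difference of at least 2-fold was also asked for, the counts were 0, 2 and 1 of 10, beside 10.2%, 11.6% and 10.1% of all genes. In KO libraries, which share no sample with the WT ones, 9, 8 and 9 members passed, beside 62.5%, 70.9% and 66% of all genes, and 0, 2 and 1 reached 2-fold, beside 10.4%, 12.6% and 9.74%. These and all later adjusted p-values come from edgeR's quasi-likelihood test with Benjamini-Hochberg adjustment over all genes tested. The median absolute log2 difference of the members was 0.22, 0.38 and 0.50 in the WT contrasts, against 0.21, 0.26 and 0.22 over all genes.

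**Figure D1:**
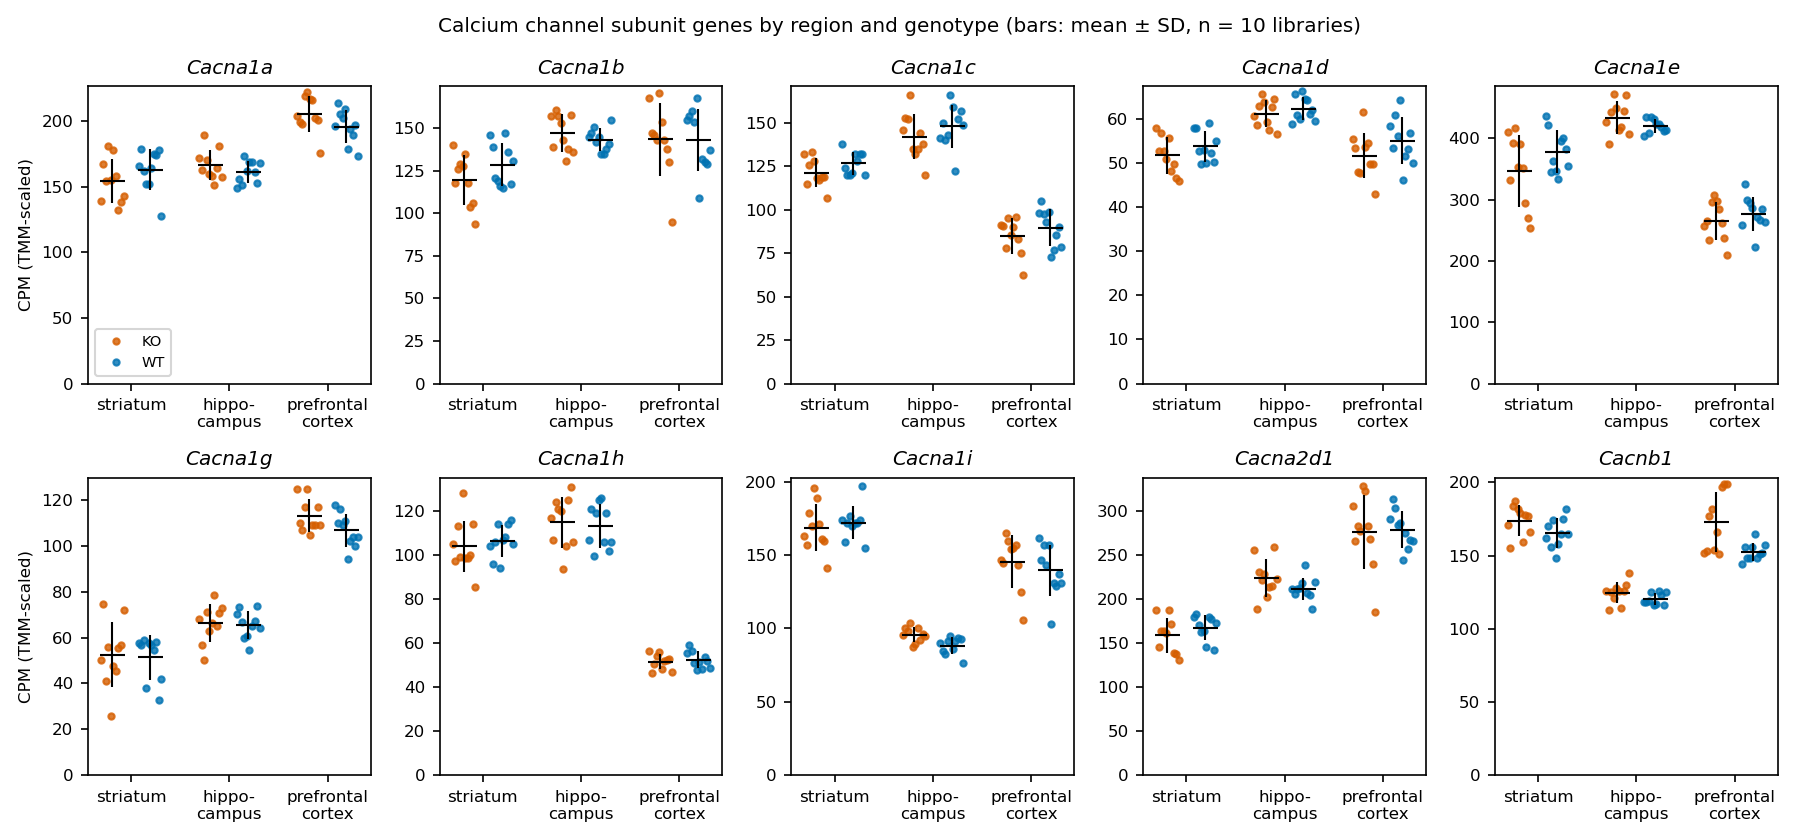
Level of each gene in CPM (vertical axes, from 0) by region and genotype, with KO left of WT in each region; points are single libraries and bars give the mean ± SD of 10 libraries. Cacna1h is lowest and Cacna1g highest in prefrontal cortex, Cacna1i is lowest in hippocampus, and the KO and WT ranges overlap for every gene in every region.

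The T-type pores showed the widest regional ranges, and each had its own order of regions. Cacna1h had 85.3, 99.8 and 128 CPM (lowest, median and highest of 10) in KO striatum, against 94.2, 106 and 116 CPM in WT striatum. In hippocampus it had 93.7, 118 and 131 CPM in KO, against 99.6, 113 and 126 CPM in WT. In prefrontal cortex it had 46.4, 52.0 and 56.2 CPM in KO, against 47.7, 51.7 and 59.2 CPM in WT. Every striatal and every hippocampal library of either genotype thus lay above every prefrontal library of that genotype. The log2 difference of striatum minus prefrontal cortex was 1.01 ± 0.06 in KO (SE; adjusted p = 1.16e-15) and 1.02 ± 0.05 in WT (adjusted p = 1.29e-18). That of hippocampus minus prefrontal cortex had 95% intervals of 1.03 to 1.28 in KO and 1.02 to 1.22 in WT (adjusted p = 6.86e-17 and 1.58e-19). Striatum and hippocampus overlapped, and their difference passed in KO (-0.14 ± 0.06, adjusted p = 0.0395) but not in WT (-0.09 ± 0.05, adjusted p = 0.0823). The 2-fold mark between striatum and prefrontal cortex was a narrow one for Cacna1h. Replicate numbers were left out 1 at a time, with their libraries of all 3 regions. The log2 difference was 0.996 (below the mark of 1) without WT replicate 4, and 0.993 and 0.985 without KO replicate 3 or 5. Each of these reduced the members past 2-fold to 1.

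Cacna1g ran the other way, highest in prefrontal cortex. Its lowest, median and highest levels were 25.9, 52.7 and 74.5 CPM in KO striatum, against 32.6, 56.9 and 59.1 CPM in WT striatum. In hippocampus they were 50.4, 67.3 and 78.6 CPM in KO, against 54.6, 66.2 and 73.7 CPM in WT, and in prefrontal cortex 105, 110 and 125 CPM in KO, against 94.2, 107 and 118 CPM in WT. All prefrontal libraries lay above all others of their genotype, while striatum and hippocampus overlapped. Striatum minus prefrontal cortex was -1.11 ± 0.11 in KO and -1.05 ± 0.09 in WT on the log2 scale (adjusted p = 5.15e-10 and 1.49e-12). Hippocampus minus prefrontal cortex was -0.77 ± 0.11 in KO and -0.70 ± 0.08 in WT, and striatum minus hippocampus was -0.33 ± 0.11 in KO and -0.36 ± 0.08 in WT, each past the threshold.

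Striatal Cacna1g was also the most variable of the 60 combinations of gene and group, with a coefficient of variation of 27.1% in KO and 19.2% in WT, where the median over the 60 was 8.45%. The lowest KO striatal library, number 5 at 25.9 CPM, had the lowest sum of 6 thalamic marker genes in its group (32.1 CPM, where the group ran to 383 CPM) and the highest medium spiny neuron sum (4880 CPM). The lowest WT library, number 9 at 32.6 CPM, likewise had the lowest thalamic sum (40.4 CPM, where the group ran to 215 CPM) and the highest medium spiny neuron sum (4510 CPM). All 6 thalamic markers were detected in both groups. Other WT libraries with low thalamic sums differed. Numbers 2 and 7 (49.1 and 52.1 CPM) had 56.8 and 54.7 CPM of Cacna1g. Numbers 4 and 10 (49.0 and 44.7 CPM) had 38.0 and 41.9 CPM. Number 5, with the highest thalamic sum, had 57.7 CPM. In KO striatum, numbers 2 and 10 had the highest Cacna1g levels (74.5 and 71.9 CPM) and the highest thalamic sums (257 and 383 CPM). KO numbers 8 and 9, with thalamic sums of 231 and 224 CPM, had 55.3 and 56.6 CPM of Cacna1g. KO number 1, with a thalamic sum of 35.8 CPM, had 50.2 CPM. Cortical excitatory sums were 480 CPM in WT library 9 (group highest 923) and 425 CPM in KO library 5 (group highest 1110). Cacna1g is itself a gene of thalamic relay neurons, and the part of carried-over tissue in these levels was not tested.

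Cacna1i was highest in striatum and lowest in hippocampus. It had 141, 167 and 196 CPM in KO striatum (lowest, median and highest), against 155, 172 and 197 CPM in WT striatum. In hippocampus it had 87.6, 95.8 and 104 CPM in KO, against 76.2, 90.8 and 95.1 CPM in WT, and in prefrontal cortex 106, 151 and 165 CPM in KO, against 103, 140 and 162 CPM in WT. The hippocampal libraries lay below all others of their genotype, and striatum and prefrontal cortex overlapped. Striatum minus hippocampus was 0.82 ± 0.06 in KO and 0.96 ± 0.06 in WT (adjusted p = 3.59e-13 and 8.63e-16). Striatum minus prefrontal cortex was smaller, at 0.21 ± 0.06 in KO and 0.30 ± 0.06 in WT (adjusted p = 0.00304 and 2.43e-05), and hippocampus minus prefrontal cortex was -0.61 ± 0.06 in KO and -0.66 ± 0.06 in WT.

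The shares of the T-type genes in their summed level per kilobase were followed across regions; their spans are 65.8 kb (Cacna1g), 59.5 kb (Cacna1h) and 111.0 kb (Cacna1i). Per kilobase of gene span, Cacna1h made up 42.9% ± 3.6 of the T-type sum in KO striatum and 43.4% ± 2.4 in WT striatum (SD, n = 10 libraries). It made up 50.8% ± 3.4 in KO and 51.4% ± 3.0 in WT hippocampus, but 22.2% ± 0.9 in KO and 23.5% ± 1.8 in WT prefrontal cortex. Cacna1g took 19.7% and 19.0% in KO and WT striatum, 26.5% and 27.0% in KO and WT hippocampus, and 44.2% and 43.2% in KO and WT prefrontal cortex. The leading T-type gene by this measure was therefore Cacna1h in striatum and hippocampus and Cacna1g in prefrontal cortex. Per kilobase of exon the order among the genes was another: Cacna1i led in striatum (51.9% in KO, 52.2% in WT) and in prefrontal cortex (47.2% in KO, 47.0% in WT), and Cacna1h led in hippocampus (42.0% in KO, 42.9% in WT). The exon lengths were added as an alternative after the data had been seen, and no count of exonic reads alone was used here.

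**Figure D2:**
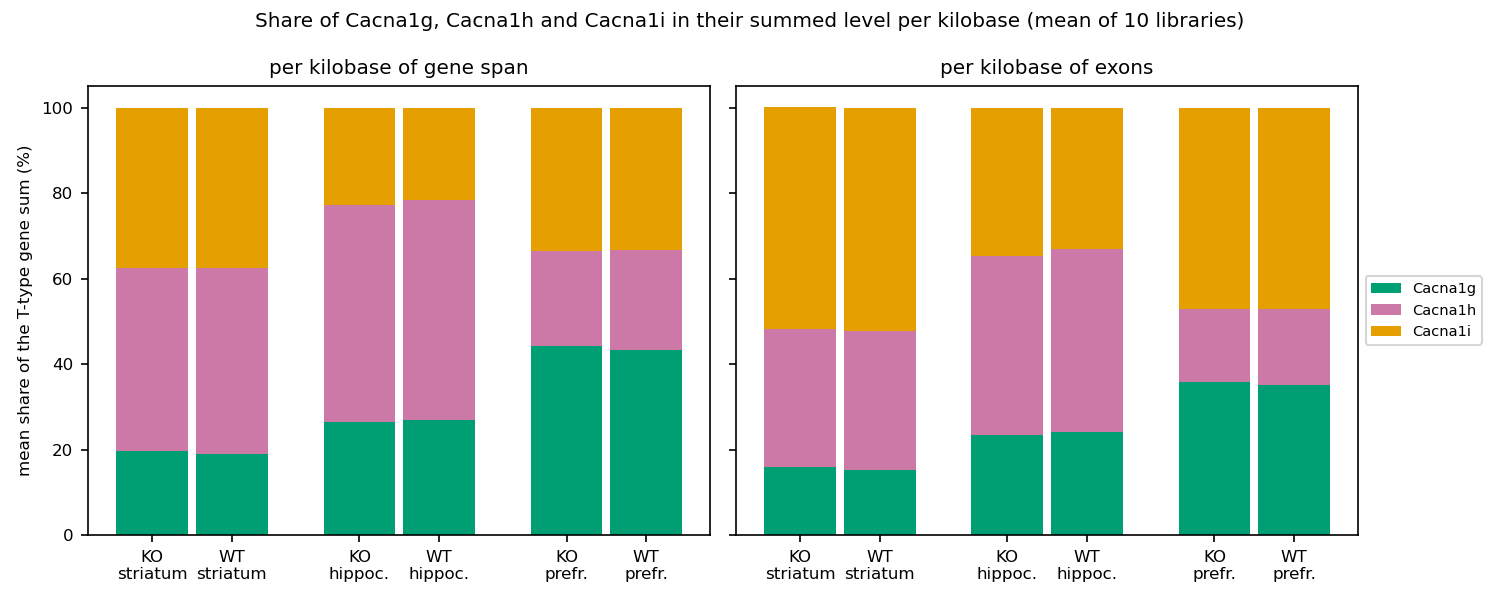
Mean share (%, vertical axes, 10 libraries a bar) of Cacna1g, Cacna1h and Cacna1i in their summed level per kilobase of gene span (left) and per kilobase of exon (right), with KO left of WT in each region. The share of Cacna1h is smallest and that of Cacna1g largest in prefrontal cortex on both scales, and the KO and WT bars of a region are nearly the same height.

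The genes whose mean levels over the 6 groups followed each T-type gene most closely were looked up among 16073 genes, by the root mean square of their difference in centred log2 level. For Cacna1h these were Soga1 (0.03), 1700010I14Rik (0.05) and Pgam2 (0.05). For Cacna1g they were Asic2 (0.04), an acid-sensing ion channel gene, Ppp1r26 (0.04) and Agbl1 (0.04), and for Cacna1i they were Myh10 (0.04), a non-muscle myosin heavy chain gene, Zfp385a (0.04) and H2-DMb2 (0.04). With 6 group means and this many genes searched, closeness is a description of the pattern only.

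The L-type pores carry calcium currents that couple activity to transcription and, in the case of Cacna1d, open at more negative voltages. Cacna1c averaged 121 ± 8.1 CPM in KO striatum and 127 ± 6.8 CPM in WT striatum (SD, n = 10 each), 142 ± 13.1 and 148 ± 12.4 CPM in KO and WT hippocampus, and 84.7 ± 10.4 and 89.7 ± 10.8 CPM in KO and WT prefrontal cortex. Each prefrontal library lay below all striatal and hippocampal libraries of its genotype. Striatum minus prefrontal cortex was 0.52 ± 0.06 in KO and 0.50 ± 0.06 in WT, hippocampus minus prefrontal cortex 0.74 ± 0.06 and 0.72 ± 0.06, and striatum minus hippocampus -0.22 ± 0.06 and -0.23 ± 0.06 on the log2 scale, all past the threshold. Cacna1d varied less, with averages of 51.6 ± 4.2 and 53.7 ± 3.5 CPM in KO and WT striatum, 61.1 ± 3.2 and 62.2 ± 2.7 CPM in KO and WT hippocampus, and 51.6 ± 5.1 and 55 ± 5.3 CPM in KO and WT prefrontal cortex. Hippocampus was higher than prefrontal cortex (0.24 ± 0.05 in KO, 0.18 ± 0.05 in WT; adjusted p = 0.000116 and 0.000591), and striatum was lower than hippocampus (-0.24 ± 0.05 and -0.21 ± 0.05; adjusted p = 0.000127 and 9.36e-05). Striatum and prefrontal cortex were not separated by the test (0.00 ± 0.05 in KO and -0.03 ± 0.05 in WT; 95% intervals of -0.10 to 0.10 and -0.12 to 0.06).

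Cacna1e, the R-type pore, followed the same order of regions as Cacna1c. It averaged 346 ± 58.5 and 378 ± 35.0 CPM in KO and WT striatum, 434 ± 26.9 and 420 ± 11 CPM in KO and WT hippocampus, and 265 ± 31.7 and 277 ± 27.5 CPM in KO and WT prefrontal cortex. Hippocampus minus prefrontal cortex was 0.71 ± 0.08 in KO and 0.60 ± 0.05 in WT (adjusted p = 3.42e-09 and 1.89e-12), with no overlap of the ranges in either genotype. Striatum minus prefrontal cortex was 0.39 ± 0.08 and 0.45 ± 0.05, and striatum minus hippocampus -0.32 ± 0.08 and -0.16 ± 0.05, all past the threshold.

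The P/Q-type and N-type pores, which trigger transmitter release at most fast synapses, had the flattest profiles together with Cacna1d. Cacna1a averaged 154 ± 16.7 and 163 ± 15.6 CPM in KO and WT striatum, 166 ± 11.7 and 161 ± 8.7 CPM in KO and WT hippocampus, and 205 ± 13.7 and 196 ± 12.9 CPM in KO and WT prefrontal cortex. It was lower in striatum than in prefrontal cortex (-0.41 ± 0.05 in KO, -0.26 ± 0.05 in WT; adjusted p = 3.38e-08 and 1e-05) and lower in hippocampus than in prefrontal cortex (-0.31 ± 0.05 and -0.28 ± 0.05; adjusted p = 7.17e-06 and 4.97e-06), whereas striatum and hippocampus were not separated (-0.10 ± 0.05 and 0.01 ± 0.05; adjusted p = 0.0835 and 0.794). Cacna1b averaged 120 ± 14.8 and 129 ± 12.6 CPM in KO and WT striatum, 147 ± 11.1 and 143 ± 6.6 CPM in KO and WT hippocampus, and 144 ± 21.2 and 143 ± 18.4 CPM in KO and WT prefrontal cortex. Its striatal level was below the hippocampal one (-0.30 ± 0.08 in KO, -0.16 ± 0.06 in WT; adjusted p = 0.0013 and 0.0209) and below the prefrontal one (-0.26 ± 0.08 and -0.15 ± 0.06; adjusted p = 0.0034 and 0.0253). Hippocampus minus prefrontal cortex was 0.04 ± 0.08 and 0.01 ± 0.06, with 95% intervals of -0.12 to 0.19 and -0.12 to 0.13. Over the WT group means, the range between the lowest and highest region was 0.16 on the log2 scale for Cacna1b, against 1.11 for Cacna1h.

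Among the 8 pore genes, ranked by mean level per kilobase of span, Cacna1h stood first in WT striatum with 1.79 CPM per kb and in WT hippocampus with 1.90 CPM per kb, and Cacna1g stood first in WT prefrontal cortex with 1.62 CPM per kb. Cacna1c and Cacna1d came last in all 3 regions, with 0.15 to 0.24 and 0.12 to 0.14 CPM per kb in WT. Per kilobase of exon the first places went to Cacna1i in WT striatum (17.4 CPM per kb), Cacna1e in WT hippocampus (16.7) and Cacna1a in WT prefrontal cortex (17.1). The order among genes thus depends on the length used, whereas a gene's comparison between regions does not.

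The auxiliary subunits differed from one another. Cacna2d1, an alpha2delta subunit that is a binding target of gabapentin, had 131, 162 and 187 CPM in KO striatum (lowest, median and highest), against 142, 172 and 183 CPM in WT striatum. In hippocampus it had 189, 222 and 259 CPM in KO, against 188, 211 and 238 CPM in WT, and in prefrontal cortex 185, 280 and 328 CPM in KO, against 244, 279 and 314 CPM in WT. In WT the 3 regions did not overlap. In KO striatum and hippocampus did not overlap either, but prefrontal library 10, at 185 CPM, lay within the striatal range and library 9, at 240 CPM, within the hippocampal one. Striatum minus prefrontal cortex was -0.80 ± 0.08 in KO and -0.73 ± 0.05 in WT (adjusted p = 2.84e-10 and 3.21e-15). Striatum minus hippocampus was -0.49 ± 0.08 and -0.34 ± 0.05, and hippocampus minus prefrontal cortex -0.30 ± 0.08 and -0.40 ± 0.05.

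Cacnb1, a beta subunit also needed in the skeletal muscle channel, had 155, 177 and 187 CPM in KO striatum, against 148, 165 and 182 CPM in WT striatum. In hippocampus it had 113, 126 and 138 CPM in KO, against 116, 119 and 126 CPM in WT, below every library of the other regions in both genotypes. In prefrontal cortex it had 151, 172 and 199 CPM in KO, against 144, 152 and 165 CPM in WT. Striatum minus hippocampus was 0.48 ± 0.05 in KO and 0.46 ± 0.03 in WT (adjusted p = 1.13e-09 and 7.72e-15), and hippocampus minus prefrontal cortex was -0.48 ± 0.05 and -0.34 ± 0.03 (adjusted p = 1.84e-09 and 1.58e-11). Striatum minus prefrontal cortex was 0.01 ± 0.05 in KO (adjusted p = 0.892) and 0.12 ± 0.03 in WT (adjusted p = 0.000791). Whether the KO and WT contrasts differed was tested by the interaction described below, which Cacnb1 did not pass.

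**Figure D3:**
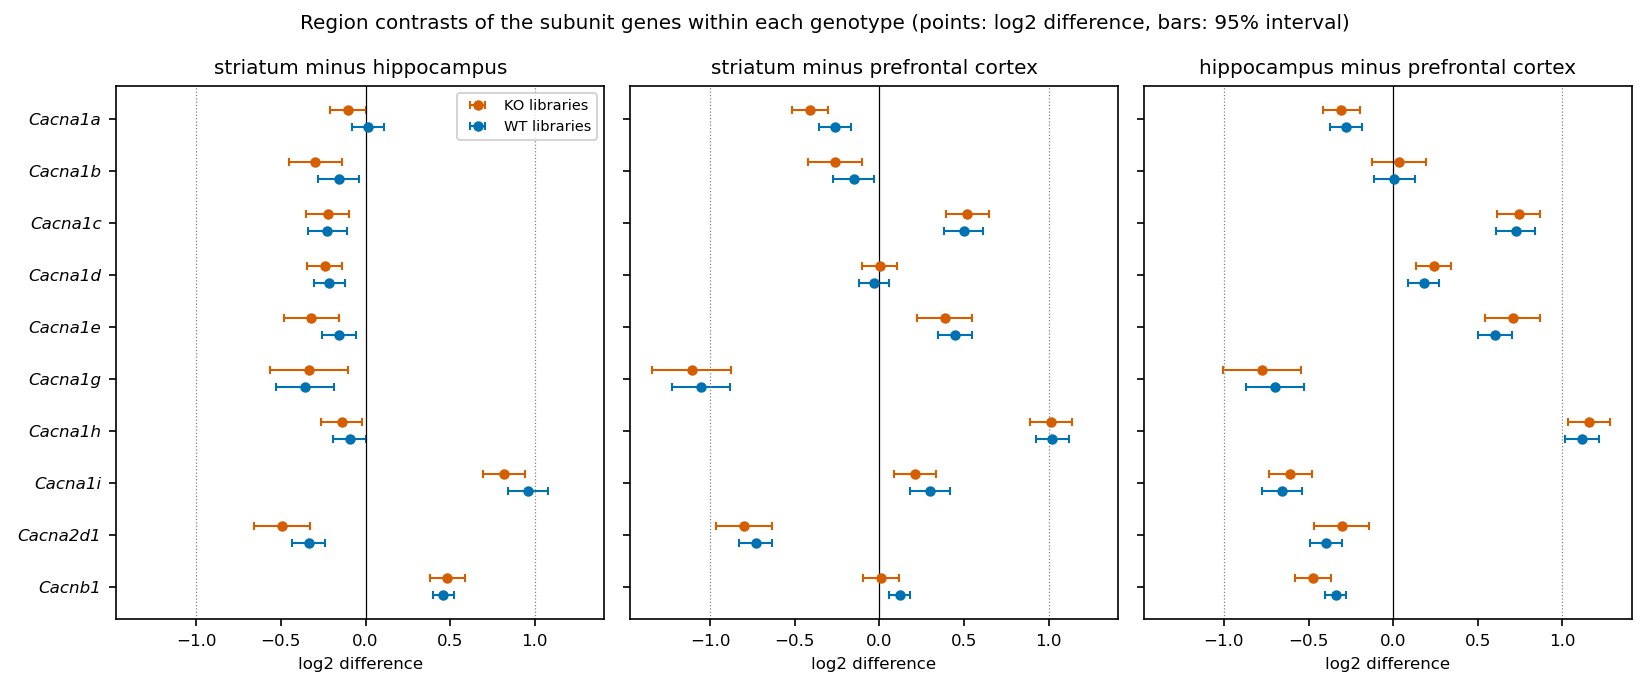
Log2 difference between regions (horizontal axes) for each gene, from KO libraries (orange, upper) and WT libraries (blue, lower); points are the fitted differences, bars their 95% intervals, and dotted lines mark 2-fold. Of 30 contrasts, 28 have the same sign in both genotypes.

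Across the 30 pairs of contrasts, 28 had the same sign in KO and in WT and 25 passed in both. The largest gap between a KO and a WT contrast was 0.16 on the log2 scale. The genes whose ranges did not overlap numbered 3 between striatum and hippocampus, 3 between striatum and prefrontal cortex and 6 between hippocampus and prefrontal cortex in KO, where 25.1%, 29.9% and 24.8% of all genes tested did not overlap. In WT they numbered 3, 5 and 7, where 27.5%, 33.2% and 28% of all genes did not overlap.

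The loss of Adgrl3 was not accompanied by a detected change in any of the 10 genes. Within a region, 10 KO libraries were set against 10 WT libraries, and 0 of 10 genes passed an adjusted p of 0.05 in striatum, in hippocampus or in prefrontal cortex, where 0.0514%, 0.128% and 0.117% of all genes tested passed. With counts summed over the 3 regions by replicate number, 0 of 10 passed as well (0.162% of all genes), and DESeq2 called 0 in each of these comparisons. At an unadjusted p under 0.05, 0 genes stood out in striatum (7.14% of all genes), 1 in hippocampus (8.14%), 1 in prefrontal cortex (11.8%) and 2 in the sums (10.5%), so the members' counts lay close to the background. The fitted differences were small: the largest within a region was 0.17 on the log2 scale, and no 95% interval in a region reached beyond 0.35 in either direction. The KO and WT ranges overlapped for all 10 genes in all 3 regions, and they failed to overlap for 0.0193% of all genes in striatum, 0.0321% in hippocampus and 0.026% in prefrontal cortex.

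The sign of the differences varied by region. KO was above WT for 2 of 10 genes in striatum, 8 in hippocampus and 4 in prefrontal cortex, and the median log2 difference of the 10 was -0.06, 0.04 and -0.01, against 0.00 over all genes in each region. The median size of the difference was 0.06, 0.04 and 0.07 for the 10 genes and 0.05, 0.04 and 0.05 over all genes.

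Cacnb1 had the smallest p-value of the 10 genes. In prefrontal cortex 6 of the 10 KO libraries lay above the highest WT library (165 CPM) and none below the lowest, and the log2 difference was 0.17 ± 0.05, with an unadjusted p of 0.00353 and an adjusted p of 0.168. In striatum it was 0.07 ± 0.04 (adjusted p = 0.723) and in hippocampus 0.05 ± 0.03 (adjusted p = 0.695). In the sums it was 0.10 ± 0.03, with an unadjusted p of 0.00509 and an adjusted p of 0.266. Fits on all 60 libraries at once gave nearly the same sizes, 0.18 in prefrontal cortex and 0.10 over the regions, but adjusted p-values of 0.0199 and 0.0159, so Cacnb1 was called there. Those fits share 1 estimate of the spread among regions, and the combined one counts libraries that may come from the same brain as separate.

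The prefrontal libraries also differed between genotypes in olfactory bulb markers, all 4 of which were detected. Their summed level was 4.32 to 50.8 CPM (median 6.92) in KO and 5.45 to 98.3 CPM (median 48.0) in WT. With the mean log2 level of these 4 markers (not their sum) as a covariate, the Cacnb1 difference in prefrontal cortex was 0.13 and its adjusted p was 0.991. Without the covariate they were 0.17 and 0.168. Adjusted p-values were high for other members too in the covariate fit (0.999 for Cacna1b, Cacna1c, Cacna1h and Cacna2d1). Of all genes it called 6, against 18 without the covariate. The markers themselves differed between genotypes, so this fit cannot tell their part from that of genotype. The share of neighbouring tissue in the prefrontal differences was not tested further.

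Cacna1i had the smallest p-value in hippocampus. There 6 of 10 KO libraries lay above the highest WT library (95.1 CPM) and none below the lowest, with a log2 difference of 0.11 ± 0.04 (unadjusted p = 0.00853, adjusted p = 0.45). Its differences in striatum and prefrontal cortex were -0.03 ± 0.05 and 0.05 ± 0.08. In the sums, Cacna1d was the other gene with an unadjusted p under 0.05, at -0.06 ± 0.03 (unadjusted p = 0.0487, adjusted p = 0.471). Within regions the Cacna1d differences were -0.06 ± 0.04 in striatum, -0.03 ± 0.03 in hippocampus and -0.10 ± 0.06 in prefrontal cortex, none of which passed.

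The other pore genes and Cacna2d1 gave differences with intervals that span 0 in every region. In striatum Cacna1e had the largest of these, -0.12 with a 95% interval of -0.30 to 0.05, and Cacna1b followed with -0.10 (-0.24 to 0.04). In prefrontal cortex Cacna1c had -0.09 (-0.25 to 0.06), which turned to 0.04 with the olfactory bulb markers as a covariate, and Cacna1g had 0.08 (-0.01 to 0.16). In hippocampus Cacna2d1 had 0.08 (-0.02 to 0.18). The least precise was Cacna1g in striatum, 0.03 with an interval of -0.29 to 0.35. Cacna2d1, on the chromosome that carries Adgrl3, had -0.08 ± 0.07 in striatum and -0.02 ± 0.08 in prefrontal cortex.

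**Figure D4:**
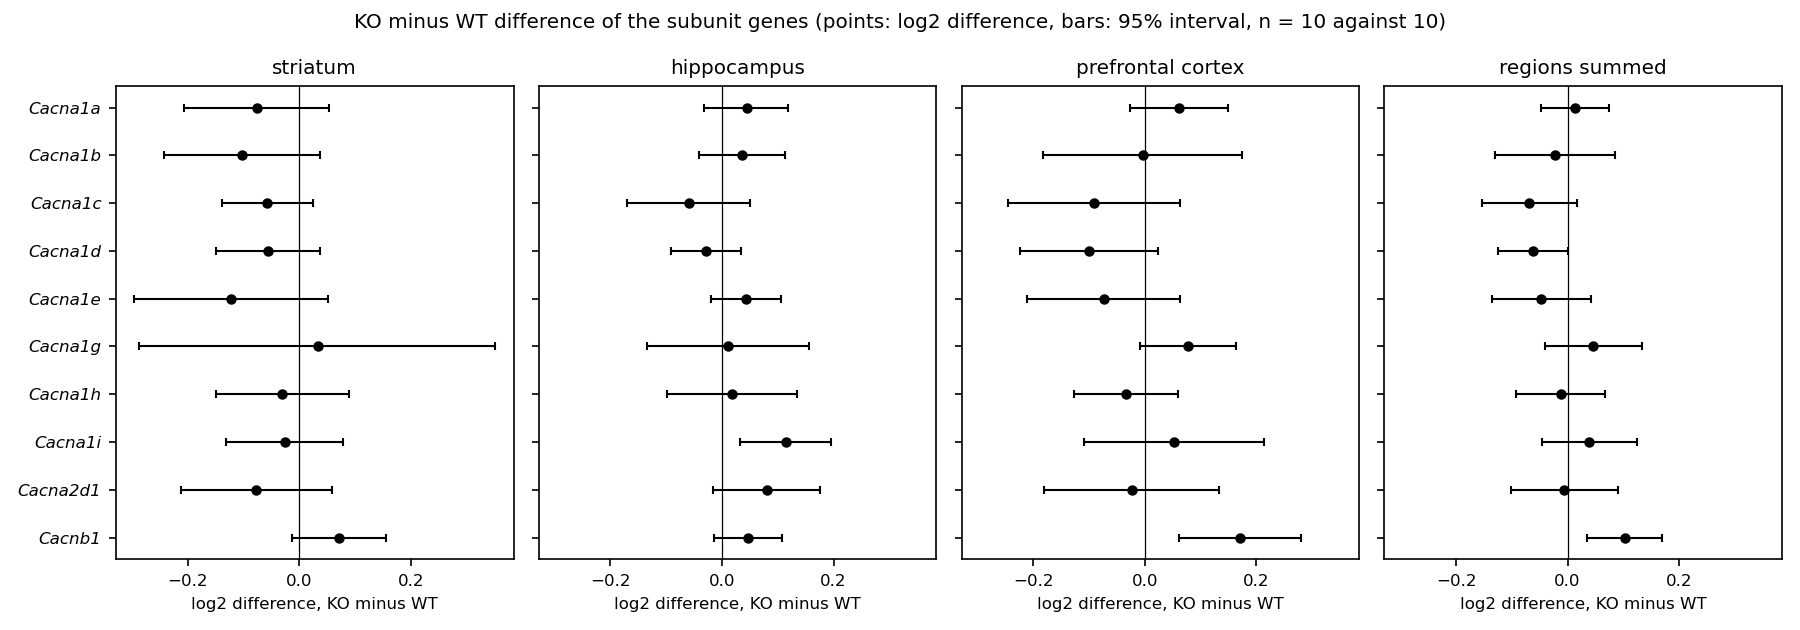
Log2 difference KO minus WT (horizontal axes) for each gene in striatum, hippocampus, prefrontal cortex and in counts summed over the regions; points are fitted differences and bars 95% intervals, 10 against 10. Intervals exclude 0 for Cacna1i in hippocampus, for Cacnb1 in prefrontal cortex and in the sums, and, narrowly, for Cacna1d in the sums; none passed adjustment over all genes.

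Whether the genotype difference itself depended on region was tested on all 60 libraries with both interaction terms together. None of the 10 genes passed by edgeR (0.0248% of all genes did) or by DESeq2, and 0 of 10 had an unadjusted p under 0.05 (3.96% of all genes). The smallest p among the members was 0.0837, for Cacnb1, with an adjusted p of 1.

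Single libraries moved many of the genes at once. KO prefrontal library 10 was the lowest of its group for 7 of the 10 genes, with a median deviation of -0.29 on the log2 scale from the group mean, and WT prefrontal library 6 was the lowest of its group for 7 genes, with -0.22. KO striatal library 10 was also the lowest for 7 genes, with -0.21. In the same 3 libraries the 2406 tested genes with spans of 100 kb or more, a class that holds 7 of the 10 members, had median deviations of -0.16, -0.11 and -0.07, while the 7081 genes with spans under 20 kb had 0.12, 0.08 and 0.05. In prefrontal cortex Cacnb1, the shortest member, was among its group's higher values in KO library 10 and was highest in WT library 6. The same libraries had the lowest sums of 5 astrocyte markers in their groups (2780 CPM in KO prefrontal library 10, 2730 CPM in WT prefrontal library 6 and 2580 CPM in KO striatal library 10). KO striatal library 10 also had the lowest medium spiny neuron sum (3000 CPM) and the highest thalamic (383 CPM) and oligodendrocyte (10100 CPM) sums of its group. The part of RNA quality, library preparation or tissue make-up in these shifts was not tested. Without KO 10 and WT 6 in every region, an alternative added after the data had been seen, 0 members were called between KO and WT, and Cacnb1 in prefrontal cortex had 0.16 with an adjusted p of 0.221.

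**Figure D5:**
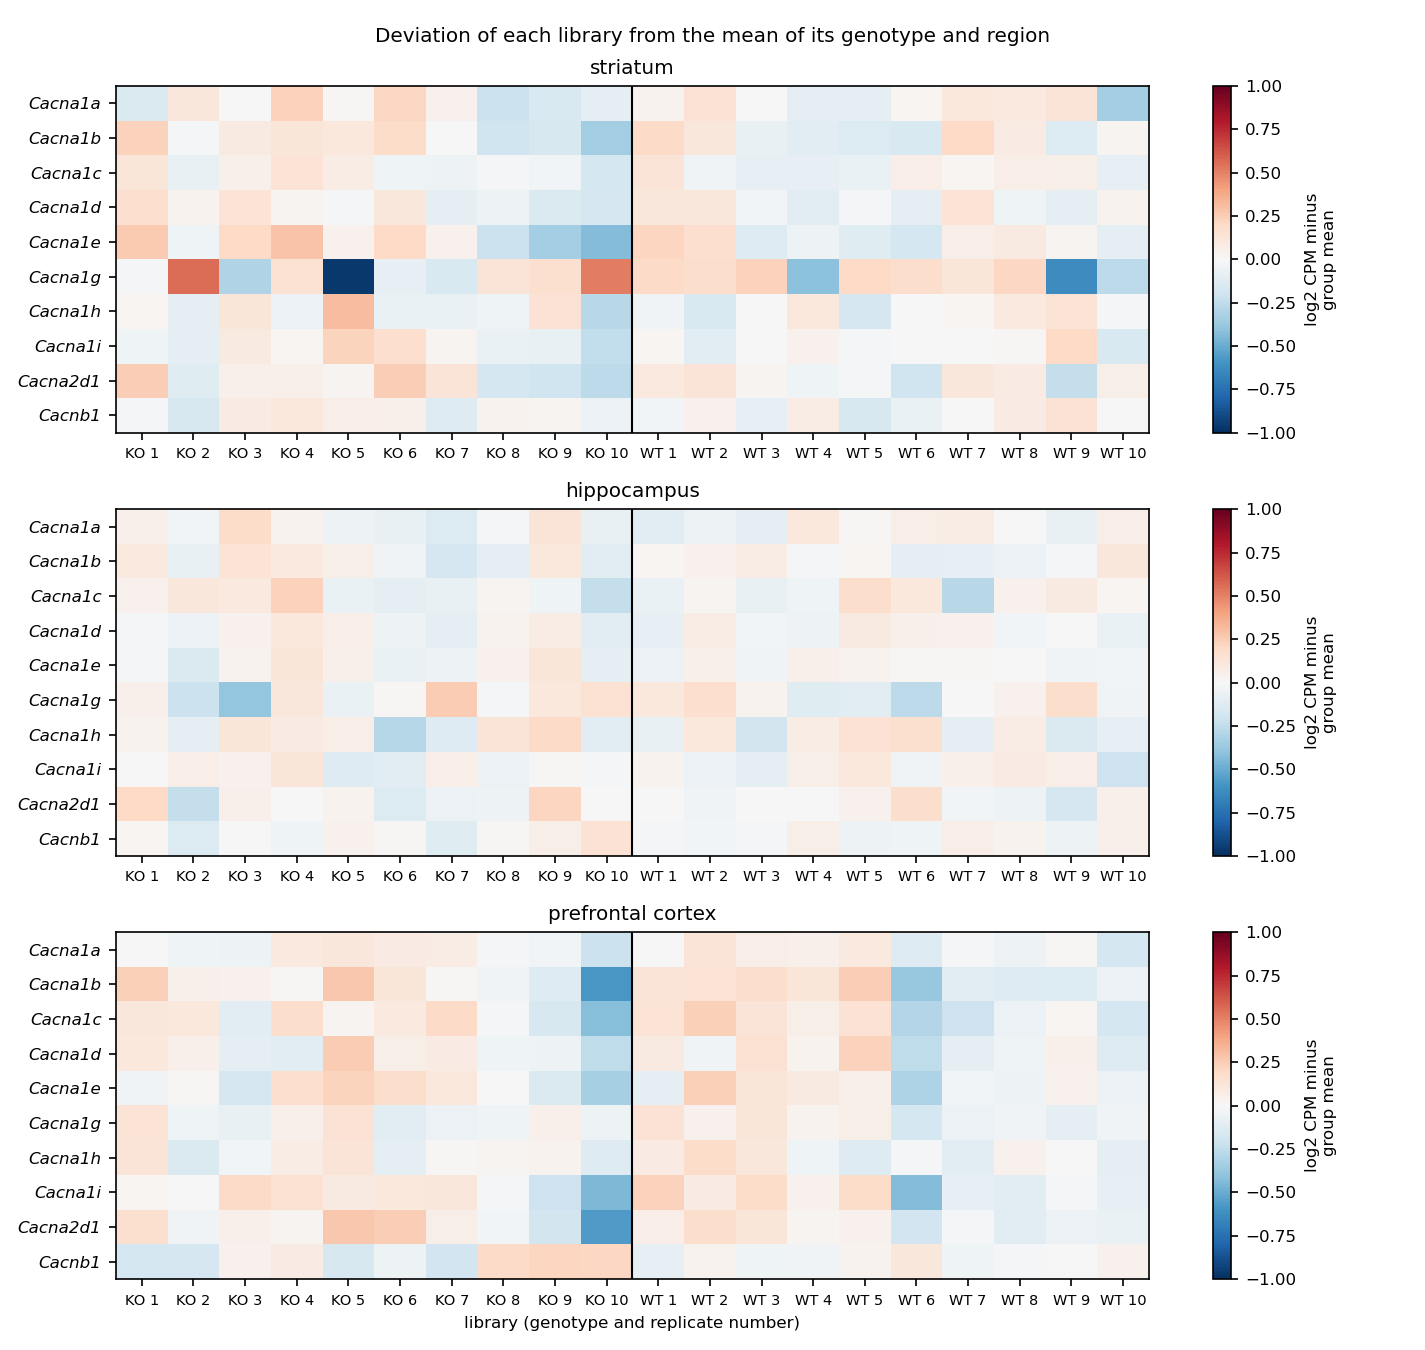
Deviation of each library from the mean of its genotype and region (log2 CPM, colour: red above, blue below) for the 10 genes (rows) in the 3 regions (panels); KO libraries stand left of the black line and WT libraries right of it. In prefrontal cortex KO 10 and WT 6 appear as blue columns, and in striatum Cacna1g has the widest spread.

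The rest of the channel family and a set of channel partners gave the setting of these genes. The 16 other family genes, which comprise pores of muscle and retina, beta and alpha2delta subunits and the gamma subunits, several of which are AMPA receptor auxiliaries, held 14 or 15 tested genes in a region. None passed between KO and WT in any region. The smallest adjusted p was that of Cacng2 (stargazin) in prefrontal cortex, at 0.0911, with a log2 difference of 0.17 ± 0.04 (96.4 CPM in KO, 85.2 CPM in WT), followed by Cacng5 with -0.71 ± 0.21 (6.17 CPM in KO, 10.1 CPM in WT; adjusted p = 0.155). Between WT striatum and WT hippocampus 13 of 15 tested genes passed, 10 higher and 3 lower, beside 66.6% of all genes (32.7% higher, 33.9% lower), and the median absolute log2 difference was 0.98, against 0.21 over all genes. Cacng4 had 122 CPM in WT striatum and 26.0 CPM in WT hippocampus (2.23 ± 0.07), and the alpha2delta genes Cacna2d2 (98.2 and 29.7 CPM, 1.73 ± 0.07) and Cacna2d3 (268 and 119 CPM, 1.18 ± 0.05) were also higher in striatum, opposite in direction to Cacna2d1. Cacng8 was lower there (53.7 and 114 CPM, -1.09 ± 0.06). Between WT hippocampus and WT prefrontal cortex 11 of 15 passed, 3 higher and 8 lower, beside 68.5% of all genes (36.9% higher, 31.6% lower). There Cacng3 had 54.0 CPM in hippocampus and 159 CPM in prefrontal cortex (-1.55 ± 0.05), while the beta subunit Cacnb4 had 141 and 285 CPM (-1.01 ± 0.08).

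The 13 partners comprised active zone scaffolds, calmodulins and a calcium-binding relative, STAC adaptors and RGK small GTPases, which inhibit high-voltage-activated channels. All 13 were tested and 0 passed between KO and WT in any region. The smallest adjusted p was that of Stac2 in prefrontal cortex, 0.133, with 0.14 ± 0.04 (123 CPM in KO, 111 CPM in WT). Between WT striatum and WT prefrontal cortex 9 of 13 passed, 2 higher and 7 lower, beside 71.5% of all genes (36.9% higher, 34.6% lower). The RGK gene Rem2 had 35.9 CPM in WT striatum, 12.9 CPM in WT hippocampus and 3.53 CPM in WT prefrontal cortex, with log2 differences of 3.35 ± 0.09 between striatum and prefrontal cortex and 1.87 ± 0.09 between hippocampus and prefrontal cortex. The adaptor gene Stac2 ran the other way, with 48.8 CPM in WT striatum and 111 CPM in WT prefrontal cortex (-1.18 ± 0.07).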

How the data were processed

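RNA from 60 libraries was measured, 10 for each genotype and region. The deposited table holds raw read counts for 21950 genes, whole numbers per the file headers over each gene from start to end. The submitters' processing notes list, with no role, the aligner STAR (2.5.2b), the read trimmer cutadapt (1.16), bedtools, FastQC (0.11.4) and DESeq2 (1.16.1), on build GRCm38. Of 493 nested gene pairs on the same strand, 0 had fewer reads in the outer gene, against 82 of 222 on opposite strands, so counts were by strand.

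The main test was edgeR 4.0.16 (R 4.3.3): TMM scaling, filterByExpr, robust quasi-likelihood F test and Benjamini-Hochberg adjustment over all genes, with a threshold of 0.05. Region contrasts within a genotype also used a log2 mark of 1. Standard errors are the fitted difference over the square root of F. Alternatives were DESeq2 1.42.0, RLE scaling, no filter, 1 CPM in 10 libraries, voom weights (limma 3.58.1), a replicate block, joint fits and leaving out libraries. Within a region 1 library was left out at a time, and in the sums and region contrasts 1 replicate number of a genotype. The fits were tested on simulated data. Replicate pairs of a group differed by more than sampling noise (chi-square per degree of freedom 5.56 to 92.8 over 270 pairs). Exon lengths came from GENCODE vM21, whose starts and ends match those of all 10 genes. All 10 members and the 3 closest genes of the 3 members with the widest range were named. Genes of the lists were named from those with the smallest p-values in a comparison. Not all of these were named, and some of the largest regional differences were left out. Members and lists were chosen with earlier results of these data known.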

Additional observations from a re-analysis of the deposited data

Results flagged for a closer look

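In each of the 60 combinations of gene, genotype and region the highest and the lowest library were set against the rest of their group, and 2 stood apart, where chance flags about 1 in 20. Cacna1a in KO prefrontal library 10 was the lowest of its group at 176 CPM, and the nearest other library was at 198 CPM, a gap of 0.474 of the group's range, past Dixon's 95% critical value for 10 samples. That library was also the lowest for 6 further channel genes. Cacna1i in WT striatal library 9 was the highest of its group at 197 CPM, and the nearest other library was at 177 CPM, a gap of 0.472 of the range. That library had the highest sum of medium spiny neuron markers in its group.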

How the results depend on the processing

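Between KO and WT, 0 members were called in any region, in the sums or in the interaction under every alternative that was run, except 1 (Cacnb1) in prefrontal cortex with all 60 libraries in one fit and 1 (Cacnb1) in the combined comparison with 60 libraries and terms for region and genotype. Leaving out single libraries within a region, or 1 replicate number of a genotype from the sums, gave 0 throughout for KO against WT. Between striatum and prefrontal cortex, leaving out 1 replicate number in all regions gave 1 to 2 members past 2-fold, in WT and in KO. Each library held at least 1114 reads of a member, and the coefficient of variation between the libraries of a group ran from 2.62% to 27.1%.

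The count of all genes called between KO and WT depended more on the method. In prefrontal cortex it was 18, against 222 by DESeq2, 208 with all 60 libraries, 55 with voom, 11 without KO 10 and WT 6, 6 with the olfactory bulb covariate and 10 with the replicate block. In hippocampus it was 20, against 47 by DESeq2, 8 without KO 10 and WT 6 and 5 with the block. In striatum it was 8, against 28 by DESeq2, 22 with all 60 libraries, 5 without KO 10 and WT 6 and 3 with the block. In the sums it was 27, against 649 with 60 libraries, 131 by DESeq2, 15 without KO 10 and WT 6 and 12 with the block. For the interaction it was 4, against 17 by DESeq2, 1 with the filter of 1 CPM, with no filter and with RLE, and 0 with the block and with voom. No cause was tested.

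The replicate block changed no member's call. Between KO and WT it tied KO and WT libraries of equal number, which are different animals. In the region contrasts and the interaction it tied libraries of equal number within a genotype. Libraries of equal number and genotype deviated together with a median correlation of 0.24 (-0.188 to 0.444 over 60 pairs between regions). The closest library had the same number in 102 of 120 searches, each among the 10 libraries of another region in that genotype. That many matches link equal numbers within a genotype, but this is known from the data only. KO and WT of equal number and region had a median of -0.0862. The labels tie no number to an animal and some of these pairs were negatively correlated, so no block was used in the main fits; the sums by number use each library once, and do not require that equal numbers are the same animal.

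Signs turned for these differences, none of them called. In KO minus WT these were Cacna1g in hippocampus (-0.035 without KO 10 and WT 6, -0.005 with voom), Cacna1b in prefrontal cortex (0.002 with all 60 libraries, 0.012 without the pair, 0.034 with the covariate, 0.008 with voom), Cacna1c and Cacna1h there (0.041 and 0.039 with the covariate), Cacna2d1 there (0.009 without the pair, 0.008 with the covariate, 0.001 with voom), and in striatum Cacna1g (-0.008 without the pair, -0.038 with voom) and Cacna1i (0.00047 without the pair). In the sums they were Cacna1h (0.015 without the pair) and Cacna2d1 (0.016 without the pair, 0.003 with voom). Between regions they were Cacna1b in WT hippocampus against prefrontal cortex (-0.01 by DESeq2 and RLE, -0.003 with the filter of 1 CPM and with none, -0.02 without the pair, -0.005 with voom) and in KO (-0.006 without the pair), Cacna1d in KO striatum against prefrontal cortex (-0.01 by DESeq2, -0.008 without the pair, -0.007 with no filter, -0.004 with the replicate block, -0.009 with RLE, -0.011 with voom) and Cacnb1 there (-0.003 by DESeq2, -0.002 with RLE). The cause was not tested.

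Leaving out single libraries turned the sign of differences in these ranges. Between KO and WT they were -0.021 to 0.05 (Cacna1g, hippocampus), -0.002 to 0.047 (Cacna1h, hippocampus), -0.042 to 0.049 (Cacna1b, prefrontal cortex), -0.054 to 0.029 (Cacna2d1, prefrontal cortex) and -0.034 to 0.113 (Cacna1g, striatum). In the sums they were -0.001 to 0.028 (Cacna1a), -0.044 to 0.01 (Cacna1b), -0.029 to 0.007 (Cacna1h) and -0.027 to 0.023 (Cacna2d1). Between regions they were -0.008 to 0.057 (Cacna1a, WT striatum against hippocampus), -0.02 to 0.033 and -0.006 to 0.061 (Cacna1b, WT and KO hippocampus against prefrontal cortex), -0.031 to 0.028 (Cacna1d, KO striatum against prefrontal cortex) and -0.023 to 0.04 (Cacnb1, the same contrast).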
